A study of Mus musculus with 106 samples.

Results

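Kit, a receptor tyrosine kinase, and Kitl, its ligand stem cell factor, were followed through single mouse cells in 11 groups that cover the formation of primordial germ cells (PGCs), the founders of sperm and eggs. Both genes were found by their symbol, which makes 2 of the 18193 genes measured by probe sets with 1 symbol. Kit had 2 probe sets and Kitl 4. Values below come from the probe set of each gene with the highest mean signal, 1452514_a_at for Kit and 1415855_at for Kitl.

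Kit is a type III receptor tyrosine kinase of the cell surface. It dimerises when it binds stem cell factor and passes the signal on through phosphatidylinositol 3-kinase, Ras and Src family kinases. Stem cell factor is made as a membrane-bound protein from which proteases can release a soluble form, and in many tissues the cells that make it are neighbours of the cells that carry Kit. Mice with mutations in either gene, known as White spotting (Kit) and Steel (Kitl), lack germ cells, pigment cells and blood cells to various degrees. PGCs use the signal to survive, divide and migrate.

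The 300 bases around the annotated start of each gene are given because both transcripts differed between stages and cell groups in these data; the arrays do not show which start was used. Kit lies on chromosome 5 at bases 75574987 to 75656722 and Kitl on chromosome 10 at bases 100015615 to 100100416, both on the plus strand, in the mouse assembly GRCm38.p6. The windows are chr5:75574737-75575036 for Kit and chr10:100015571-100015870 for Kitl, with 250 bases before and 50 after a start listed by RefSeq. For Kit the first of 2 listed starts is shown, which is the first base of the gene. For Kitl the 1 listed start is base 100015821, which lies 206 bases inside the gene's outer limit given above. Capitals mark the GC box GGGCGG on either strand and the TATA sequence TATAAA.

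Kit promoter: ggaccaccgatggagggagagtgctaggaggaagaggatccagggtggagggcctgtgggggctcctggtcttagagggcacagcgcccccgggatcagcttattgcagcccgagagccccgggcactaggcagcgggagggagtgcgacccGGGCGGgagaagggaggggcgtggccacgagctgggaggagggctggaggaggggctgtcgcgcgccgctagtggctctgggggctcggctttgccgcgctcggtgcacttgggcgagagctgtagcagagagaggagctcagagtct
Kitl promoter: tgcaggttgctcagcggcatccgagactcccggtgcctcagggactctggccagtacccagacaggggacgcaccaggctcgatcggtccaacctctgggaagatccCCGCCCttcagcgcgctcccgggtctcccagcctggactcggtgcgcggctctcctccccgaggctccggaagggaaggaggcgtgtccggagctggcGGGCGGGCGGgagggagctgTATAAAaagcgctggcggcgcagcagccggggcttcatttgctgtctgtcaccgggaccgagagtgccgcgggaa

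Both windows were rich in G and C, with 69% in Kit and 68.7% in Kitl, against a median of 52.7% over 27025 mouse promoters of the same length. Kit had 1 GC box and Kitl had 3, of which a pair overlapped, and 35.9% of all promoters held at least 1. Kitl had TATAAA starting 25 bases before its listed start, base 100015821, and Kit had none, and 14.2% of all promoters held it. The pattern GCCNNNGGC, bound by Tfap2 factors, occurred 1 time in Kit and not in Kitl (16.5% of all promoters). The letters GATA, a core of GATA factor sites, and GAAAG, a core of Blimp1 sites, were in neither window, and 58.3% and 57.1% of promoters held them. CANNTG, the E-box, occurred 1 time in each (72.1% of promoters). All motifs were searched on both strands, and a match is only a match of letters.

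Every cell came from an embryo of the C57BL/6 strain and was hybridised to 1 array after its cDNA had been amplified. Blimp1, encoded by Prdm1, represses transcription and is required for PGCs to form, and 2 groups of cells were Blimp1 (-/-) while all others were wild type. The groups were chosen by transcripts found in the amplified cDNA. Since no embryo or litter is named for any cell, a group counts as a single sample here, and differences are given without a test.

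The Blimp1 knockout cells were positive for the transcript of the null allele and for Oct4, with 12 cells at the Early/Mid-Bud (E/MB) stage and 20 at Late-Streak/0-Bud (LS/0B). The wild-type lineage had 8 pre-streak (PS) cells of the posterior epiblast, chosen by Oct4 and T, followed by 7 Early/Mid-Streak (E/MS) and 17 LS/0B precursors, chosen by Blimp1 and Oct4. It ended with PGCs chosen by Blimp1 and stella (Dppa3), 8 cells each at E/MB, at the early head fold (EHF) and at E8.25. The somatic side held 4 E/MB and 4 EHF cells with Blimp1, Oct4 and Hoxb1, called Blimp1+ Hoxb1+ cells, and 10 E/MB posterior mesoderm cells with Oct4 and Hoxb1 and without Blimp1. The 4 Blimp1+ Hoxb1+ cells called EHF here carry that stage in their description and E/MB in their title.

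Signals are linear array intensities. Values under 70.2, the level of background probe sets, were raised to it (6.13 in log2) before means were taken. Detection in a cell means a signal over the 95th percentile of that cell's background probe sets, a limit between 82.8 and 166. Amplification from 1 cell can lose a transcript that was present, and less Kit or Kitl RNA cannot be told apart from a failed amplification in that cell. Prdm1 was detected in 9 of 12 E/MB and 12 of 20 LS/0B knockout cells, against 8 of 8 E/MB PGCs and 16 of 17 LS/0B precursors; the knockout cells were chosen by the transcript of the null allele, so Prdm1 signal does not check their genotype. Controls spiked in for hybridisation averaged 11.23 ± 0.33 log2 units on the mesoderm arrays and 9.79 ± 0.28 on the others, so levels in mesoderm depend on the scaling more than others do.

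Kit was not detected in most cells up to the LS/0B stage and was detected in all PGCs. In E/MB PGC replicates 4 and 6 the signal was within the range of the LS/0B precursors. In PS epiblast the Kit signal ranged from 1 to 172 with a median of 2.41, and Kit was detected in 2 of 8 cells. E/MS precursors ranged from 1 to 147 with a median of 1 and Kit was detected in 1 of 7 cells. LS/0B precursors ranged from 1 to 753 with a median of 36.5 and Kit was detected in 4 of 17 cells. These 3 groups overlapped through most of their range, and only 3 LS/0B cells, with 272, 407 and 753, stood above every earlier cell. In E/MB PGCs the signal ranged from 207 to 2124 with a median of 1798, in EHF PGCs from 1399 to 2425 with a median of 1851, and in E8.25 PGCs from 1556 to 3144 with a median of 2422. Kit was detected in all 24 PGCs, which with 8 of 8 in each stage allows a share of cells as low as 63.1% by the exact 95% binomial interval. Such intervals cover counting error only.

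**Figure D1:**
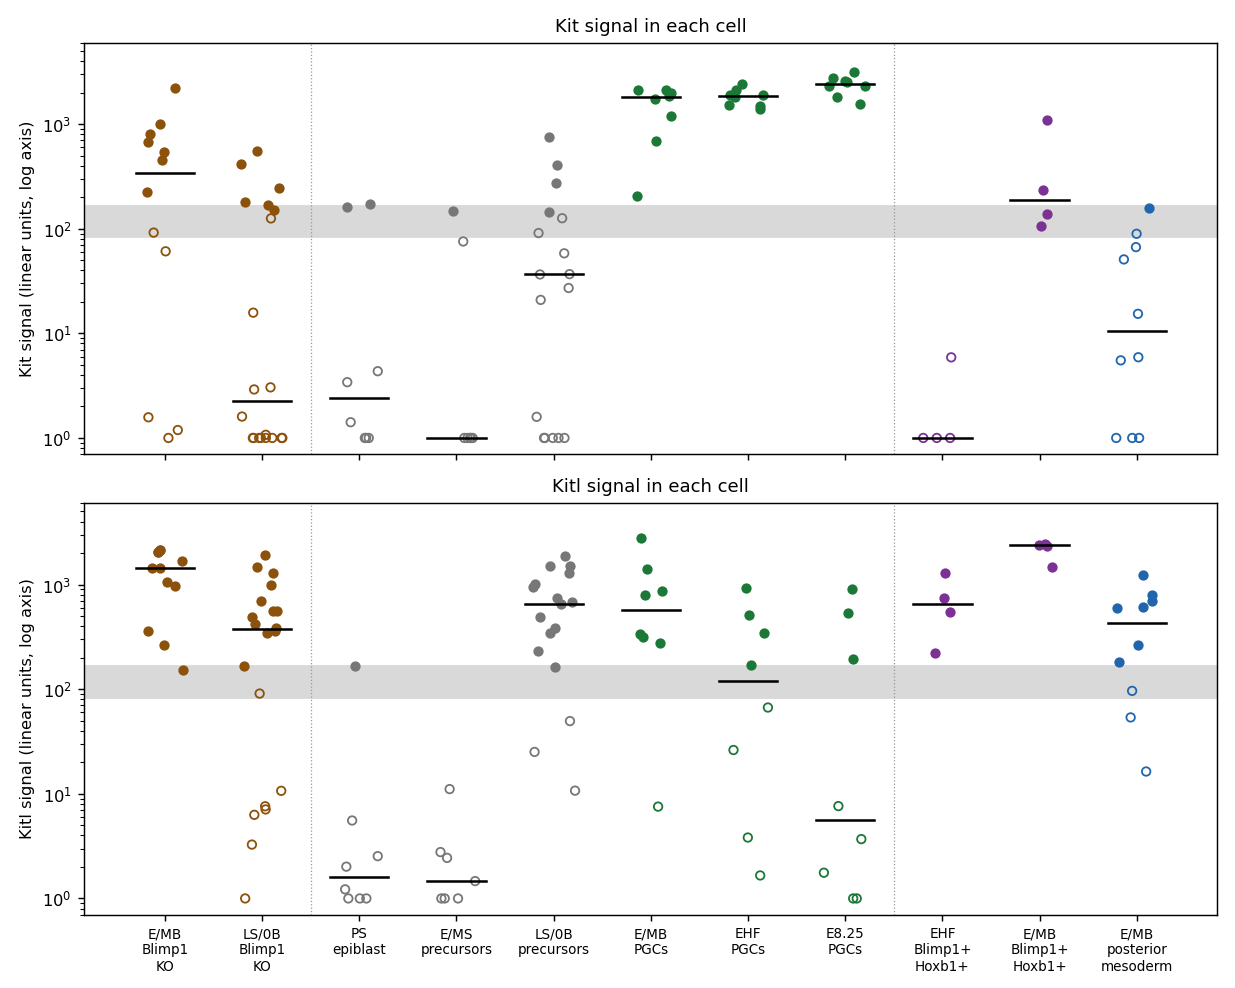
Signal of Kit (top) and Kitl (bottom) in each cell, in linear units on a log axis, for Blimp1 knockout cells, the wild-type lineage by stage, and Blimp1+ Hoxb1+ and mesoderm cells. Filled points were detected, open points were not, bars are medians and the grey band is the range of detection limits; all 24 PGCs lie above the band for Kit, while only part of them do so for Kitl.

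Between stages, the largest step of Kit came with the E/MB PGCs. Their mean floored log2 signal was 10.25 ± 1.17 (SD, n = 8 cells), against 6.73 ± 1.06 in LS/0B precursors (n = 17), a difference of 3.52, and 1 gene of the 18193 had a larger one. In that comparison 2.72% of all genes stood 1 log2 unit or more higher and 2.56% lower, the size called a difference here. In 6 of the 8 PGCs Kit lay above the highest precursor, and PGC replicates 4 (207) and 6 (688) did not. The choice of cells also changed at this step, from Blimp1 and Oct4 to Blimp1 and stella (Dppa3). Kit averaged 7.25 in the 8 LS/0B precursors with Dppa3 detected and 6.27 in the 9 without it. The part of this choice in the step was not tested. E8.25 PGCs averaged 11.18 ± 0.33 (n = 8), against 6.44 ± 0.58 in PS epiblast (n = 8), a difference of 4.74 that no other gene exceeded, where 4.5% of genes were higher. Every E8.25 cell lay above every epiblast cell, which 0.588% of all genes also did in this direction.

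After E/MB the means moved less. EHF PGCs averaged 10.81 ± 0.27 (n = 8), against the 10.25 ± 1.17 of E/MB PGCs, a difference of 0.56 in a comparison in which 1.81% of genes were higher by 1 log2 unit or more. It was 0.19 without E/MB replicate 4, 0.27 in the cells without Xist and 0.32 with arrays scaled to hybridisation controls. E8.25 PGCs were higher than EHF PGCs by 0.37 (1.6% of genes called higher), and 4 of 8 E8.25 cells lay above the highest EHF cell. Scaled to the hybridisation controls this difference was 0.77, while the median of broadly detected genes moved by 0.39. Before E/MB, E/MS precursors differed from PS epiblast by -0.14 and LS/0B from E/MS precursors by 0.43, where 2.48% of genes were called higher and 2.67% lower in the first comparison and 1.41% higher and 1.37% lower in the second. The SD over PGCs was 1.17, 0.27 and 0.33 at E/MB, EHF and E8.25. The E/MB value rested largely on replicate 4, and the SD of the other 7 cells was 0.60.

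In the somatic cells Kit was detected in fewer cells or at lower signal than in PGCs. In E/MB posterior mesoderm, Kit signals ranged from 1 to 159 with a median of 10.6, and 1 of 10 cells was called detected. All 8 E/MB PGCs lay above all 10 mesoderm cells, and their mean was 3.97 higher (mesoderm 6.29 ± 0.38), with 10 genes showing a larger difference. In this comparison 7.99% of genes were higher by 1 log2 unit and 1.24% were higher in every cell. The median of broadly detected genes was 0.15 higher in PGCs, and 1.39 higher when arrays were scaled to hybridisation controls.

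The Blimp1+ Hoxb1+ cells, which like PGCs were chosen with Blimp1 transcript, divided by stage label. The 4 E/MB cells had Kit signals of 106.1, 138, 236 and 1105, and all 4 were called detected, but only 1 passed the 99th percentile of background probe sets. The 4 EHF cells had signals of 1, 1, 1 and 5.89, and 0 were detected, which an exact interval bounds at 60.2% of such cells. Prdm1 was detected in 4 of 4 E/MB and 3 of 4 EHF cells. EHF replicate 1, the cell with 5.89, had Dppa3 detected and Prdm1 not detected. No cell of these 2 groups overlapped with the other: Kit was at least 2.03-fold lower in the EHF cells, with a difference of -1.82 where 4.46% of genes were called lower and 1.2% were lower in every cell. Without E/MB replicate 2, the cell with 1105, the difference was -1.11 and the bound 1.23-fold.

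Kit in E/MB PGCs was 2.29 log2 units above the E/MB Blimp1+ Hoxb1+ cells (7.96 ± 1.51, n = 4), where 4.86% of genes were called higher, and 6 of 8 PGCs lay above the highest of them. EHF PGCs were at least 14.6-fold higher than EHF Blimp1+ Hoxb1+ cells, without overlap, a difference of 4.68 where 6.52% of genes were called higher and 1.81% were higher in every cell; 2 genes had a larger difference. Against mesoderm, the E/MB Blimp1+ Hoxb1+ cells were 1.67 higher, where 7.94% of genes were. The difference was 0.95 without replicate 2 of the Blimp1+ Hoxb1+ cells, and 0.76 with all 8 Blimp1+ Hoxb1+ cells as 1 group.

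Without Blimp1, Kit was detected in a part of the cells at both stages. In E/MB knockout cells the Kit signal ranged from 1 to 2189.5 with a median of 338, and 7 of 12 cells were called detected (exact 95% interval 27.7% to 84.8%). In LS/0B knockout cells it ranged from 1 to 558 with a median of 2.26, and 6 of 20 cells were called detected. The E/MB knockout cells spread over the ranges of precursors and PGCs: 5 of 12 lay below the lowest E/MB PGC and 1, replicate 9 with 2189.5, lay above the highest.

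The mean of E/MB knockout cells was 8.07 ± 1.81 (n = 12), which is 2.18 below E/MB PGCs (difference -2.18, where 3.37% of genes were called lower). It was 1.78 above E/MB mesoderm, where 6.58% of genes were called higher and 1.29% lower, and 7 of 12 knockout cells lay above the highest mesoderm cell. Against E/MB Blimp1+ Hoxb1+ cells the difference was 0.11 (2.14% called higher), which changed sign when single cells were left out (range -0.30 to 0.83), and was 1.02 against all 8 Blimp1+ Hoxb1+ cells. Between stages, E/MB knockout cells were 1.34 above LS/0B knockout cells (6.73 ± 0.95, n = 20). There 0.495% of genes were called higher and 0.643% lower, and 29 genes had a larger difference than Kit.

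At LS/0B, Kit averaged 6.73 ± 0.95 in knockout cells (n = 20) and 6.73 ± 1.06 in precursors (n = 17). In this comparison 0.945% of genes were called higher and 0.379% lower. Kit was detected in 6 of 20 knockout cells and 4 of 17 precursors, with intervals of 11.9% to 54.3% and 6.81% to 49.9%. At the 99th percentile of background probe sets, Kit was detected in 1 of 20 knockout cells and 2 of 17 precursors.

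Kitl came into the lineage earlier than Kit and was less uniform in PGCs. In PS epiblast its signal ranged from 1 to 168 with a median of 1.62, and it was detected in 1 of 8 cells. In E/MS precursors it ranged from 1 to 11.1 with a median of 1.47 and was detected in 0 of 7 cells, which an exact interval bounds at 41.0%. In LS/0B precursors it ranged from 10.7 to 1866 with a median of 657 and was detected in 14 of 17 cells. All 14 of these cells lay above the highest E/MS cell, and Kitl was at least 3.20-fold higher in LS/0B precursors, a difference of 2.69 that 2 genes exceeded. As an average over the 4 probe sets of Kitl, of which the others were mostly undetected, this difference was 0.72.

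The number of PGCs with the ligand detected was 7, 4 and 3 of 8 at the 3 stages, with exact 95% intervals of 47.3% to 99.7%, 15.7% to 84.3% and 8.52% to 75.5%, which overlap. E/MB PGCs ranged from 7.55 to 2766 with a median of 569, EHF PGCs from 1.66 to 922 with a median of 119, and E8.25 PGCs from 1 to 912 with a median of 5.66. The ranges overlapped at all 3 stages. Mean log2 signals were 9.03 ± 1.65, 7.40 ± 1.52 and 7.15 ± 1.53 at E/MB, EHF and E8.25 (n = 8 each), where Kit at the same stages showed SDs of 1.17, 0.27 and 0.33.

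EHF PGCs were lower in Kitl than E/MB PGCs by 1.62 (difference -1.62, where 2.06% of genes were called lower), while E8.25 differed from EHF PGCs by -0.26 (1.48% called lower), with a sign that turned without EHF replicate 5 (0.09). E/MB PGCs and LS/0B precursors had close means, with a difference of 0.20, and -0.14 without PGC replicate 4. In the cells without Xist, 8 PGCs and 9 precursors, this difference was 0.78. Kitl averaged 9.60 in the 8 LS/0B precursors with Dppa3 detected, by which PGCs were chosen, and 8.14 in the 9 without it. E8.25 PGCs were 0.86 above PS epiblast, and 1.01 without PS replicate 3, the only epiblast cell with Kitl, and 1.0 without any 1 of the 5 E8.25 cells in which Kitl was not detected. Without E8.25 replicate 6 it was 0.47. E/MS precursors differed from PS epiblast by -0.16.

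Outside the PGCs Kitl was common. The 4 E/MB Blimp1+ Hoxb1+ cells had Kitl signals of 1463, 2339, 2395 and 2424, and the 4 EHF Blimp1+ Hoxb1+ cells had 220.3, 552, 743 and 1285. All 8 were detected, the E/MB cells lay above all EHF cells, and the difference of the EHF from the E/MB cells was -1.86, or -0.81 as an average over the 4 probe sets. In this comparison 4.46% of all genes were called lower and 1.2% were lower in every cell. In E/MB posterior mesoderm Kitl ranged from 16.3 to 1236 with a median of 430.1, and 7 of 10 cells were detected.

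The E/MB Blimp1+ Hoxb1+ cells had the highest Kitl mean of all groups, 11.04 ± 0.35 (n = 4), against 8.22 ± 1.55 in mesoderm (n = 10), a difference of 2.82 without overlap; 1.68% of genes were higher in every cell. E/MB PGCs were 2.02 below the E/MB Blimp1+ Hoxb1+ cells (difference -2.02, where 5.1% of genes were called lower), and 7 of 8 lay under the lowest of them; PGC replicate 4 with 2766 lay above the highest. The difference was -1.09 against all 8 Blimp1+ Hoxb1+ cells. EHF PGCs were 1.78 below EHF Blimp1+ Hoxb1+ cells (difference -1.78, where 5.12% of genes were called lower), and 5 of 8 lay under the lowest of them. Against mesoderm, E/MB PGCs were 0.80 higher; it was 1.22 without PGC replicate 2, the 1 PGC at this stage without Kitl, 1.03 without mesoderm replicate 4 and 0.46 without PGC replicate 4. It was 0.58 with arrays scaled to broadly detected genes and 1.92 with arrays scaled to hybridisation controls.

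Kitl was also found in cells without Blimp1. In E/MB knockout cells it ranged from 154 to 2157 with a median of 1444 and 12 of 12 cells had it detected, against 7 of 8 E/MB PGCs. In LS/0B knockout cells it ranged from 1 to 1917 with a median of 375 and 13 of 20 cells had it detected, against 14 of 17 LS/0B precursors. The groups overlapped in both comparisons. At E/MB, knockout cells averaged 9.97 ± 1.31 (n = 12) and were 0.94 above PGCs, where 3.69% of genes were called higher; without any 1 of 7 cells (PGC replicates 3, 4, 7 and 8, knockout replicates 9, 10 and 12) the difference lay between 1.03 and 1.28, and without PGC replicate 2 it was 0.52.

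At LS/0B, knockout cells averaged 8.16 ± 1.68 (n = 20) and differed by -0.66 from precursors at 8.83 ± 1.61 (n = 17). Xist was detected in 0 of these 20 knockout cells and in 8 of the 17 precursors. In the cells without Xist, 20 and 9, the difference was -0.085, and as the mean over probe sets, with all cells, it was -0.044. E/MB knockout cells were 1.80 above LS/0B knockout cells, and 9 genes had a larger difference. They were 1.74 above mesoderm and 1.08 below E/MB Blimp1+ Hoxb1+ cells (difference -1.08, where 1.87% of genes were called lower). The difference from Blimp1+ Hoxb1+ cells was -0.90, -0.94 and -0.83 without knockout replicates 9, 10 and 12, and -0.15 against all 8 Blimp1+ Hoxb1+ cells.

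Receptor and ligand were set against each other in the same cell. Over all cells, 34 had both detected, 15 had Kit only, 35 had Kitl only and 22 had neither. In the wild-type lineage the pattern went through 3 forms in time order. Neither gene was detected in 6 of 8 PS epiblast and 6 of 7 E/MS cells. In LS/0B precursors 10 of 17 cells had Kitl only, 4 had both, 0 had Kit only and 3 had neither. Among PGCs, 14 of 24 had both and 10 had Kit only, and cells with both numbered 7, 4 and 3 of 8 at E/MB, EHF and E8.25.

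**Figure D2:**
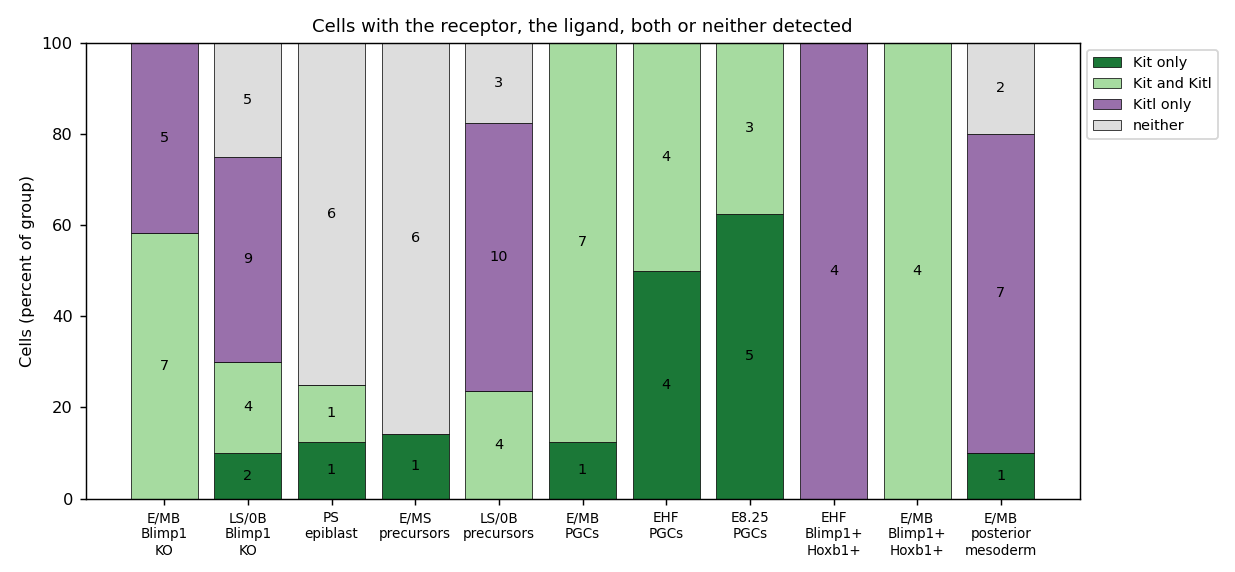
Share of cells in each group, in percent, with Kit only, Kit and Kitl, Kitl only or neither gene detected, with the number of cells written in each segment. Kitl only is absent from all 3 PGC groups and makes up 4 of 4 EHF Blimp1+ Hoxb1+ cells and 7 of 10 mesoderm cells.

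Outside the PGCs the pattern differed from group to group. E/MB knockout cells had both in 7 of 12 and Kitl only in 5, and Kit only in 0. LS/0B knockout cells had both in 4, Kit only in 2, Kitl only in 9 and neither in 5 of 20. Mesoderm had Kitl only in 7 of 10 cells, Kit only in 1, neither in 2 and both in 0. E/MB Blimp1+ Hoxb1+ cells had both in 4 of 4 and EHF ones had Kitl only in 4 of 4. Among cells with Kit, Kitl was also detected in 7 of 7 E/MB knockout cells, 4 of 6 LS/0B knockout cells and 4 of 4 LS/0B precursors, but in 3 of 8 E8.25 PGCs.

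Signal levels of the 2 genes showed no common course over cells. The Pearson correlation of floored log2 signal was 0.04 over all cells and 0.01 over the 11 group means, and over the 24 PGCs it was -0.38. Within groups it was 0.45 in LS/0B precursors (n = 17) and 0.13 in LS/0B knockout cells (n = 20), and in the other 6 groups in which both genes varied it lay between -0.46 and 0.62 over 8 to 12 cells. These are descriptions of arrays that share amplification and depth, and in such small groups weak values are no finding. Replicate 4 of the E/MB PGCs had the lowest Kit of the group (207) and the highest Kitl (2766), while replicate 2, the 1 cell without Kitl, had 2121 for Kit.

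**Figure D3:**
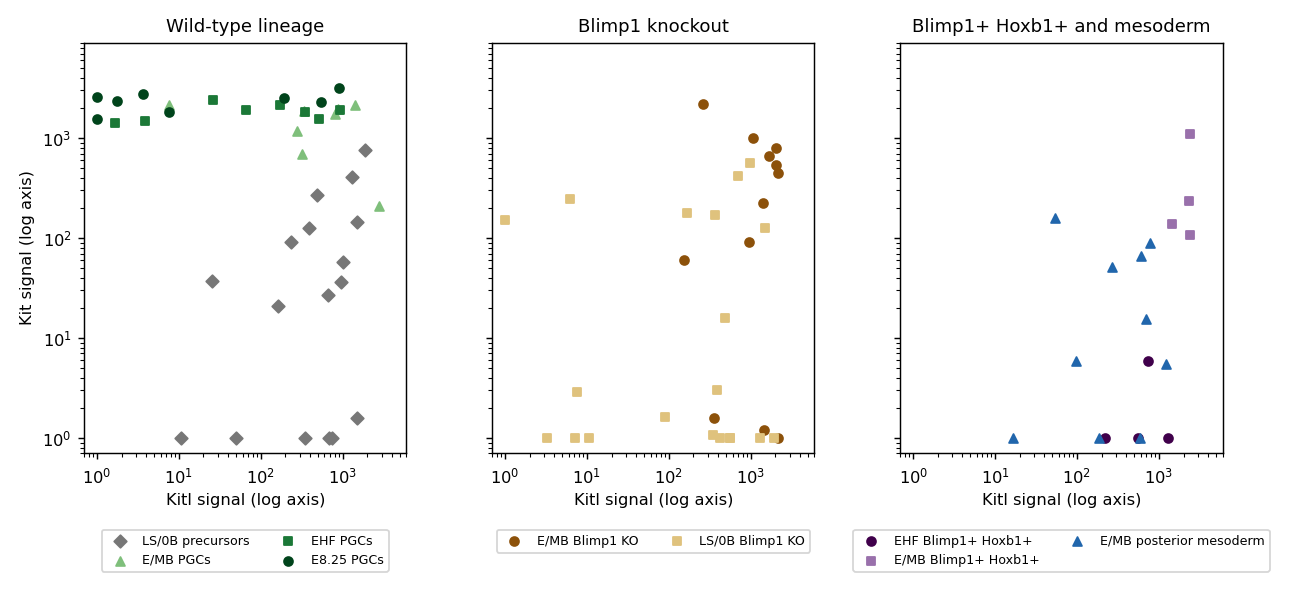
Kit signal against Kitl signal in each cell, both on log axes, in LS/0B precursors and the 3 PGC stages (left), knockout cells (middle), and Blimp1+ Hoxb1+ and mesoderm cells (right); axes compare cells, and the levels of the 2 genes cannot be set against each other. PGCs spread along the top of the left panel over the whole range of Kitl, and mesoderm and EHF Blimp1+ Hoxb1+ cells lie low in Kit.

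Within the LS/0B precursors, Kit was detected only beside Dppa3 (stella), an early PGC gene that was not used to choose these cells. Kit was detected in 4 of 8 cells with Dppa3 and 0 of 9 without it. This split was not particular to Dppa3. Kit was in 4 of 11 cells with Prdm14 and 0 of 6 without, and in 4 of 12 with Dnd1 and 0 of 5 without. Tfap2c (3 of 9 with and 1 of 8 without), Sox2 (2 of 7 and 2 of 10) and Hoxb1 (2 of 11 and 2 of 6) did not split Kit this way. Kitl was detected in 8 of 8 cells with Dppa3 and 6 of 9 without it. Xist, the RNA of the inactive X chromosome, was in 8 of the 17 cells; among these, Kit was detected in 2 of 5 cells with Dppa3 and 0 of 3 without, and among the cells without Xist in 2 of 3 and 0 of 6.

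In E/MB knockout cells Kit was detected beside few or several PGC genes. Of these 12 cells Kit was in 7 and Prdm14, a PGC transcription factor, in 7, while Dppa3 was in 4, Sox2 in 1 and Tfap2c, another early PGC factor, in 0. Kit was in 3 of 4 cells with Dppa3 and 4 of 8 cells without. At LS/0B, Dppa3 was in 0 of 20 knockout cells and Kit in 6, of which 3 were among the 16 cells with Hoxb1, a posterior mesoderm gene, and 3 among the 4 cells without. Kitl was in 12 of the 16 cells with Hoxb1 and 1 of the 4 without. The part of other differences between these cells in the Kit result was not tested.

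Genes of the receptor's signal path were measured as lists chosen by their role. Of 40 adaptors and kinases 32 were measured, of 18 inhibitors 17, and of 11 type III receptors and their ligands 10. In E8.25 PGCs against PS epiblast, 5 of 32 adaptors and kinases were higher and 2 lower by 1 log2 unit, with a median of 0.30, against 819 higher and 872 lower of all 18193 genes (4.5% and 4.79%, median 0). Plcg2, a phospholipase that Kit can activate, was 1.63 higher, Akt1, a survival kinase downstream of phosphatidylinositol 3-kinase, 1.5 higher, and Src, a tyrosine kinase, lower by 1.58 (difference -1.58). Plcg2 averaged 10.49 ± 0.46 in E/MB PGCs, against 7.70 ± 1.5 in LS/0B precursors, and it was 7.23 ± 1.24 in E/MB knockout cells and 7.32 ± 1.37 in mesoderm. Its difference in E/MB knockout cells from E/MB PGCs was -3.26. In that comparison 1 of the 32 adaptors and kinases was higher and 1, Plcg2, lower, with a median of 0.27. Of all genes 3.69% were called higher there and 3.37% lower.

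**Figure D4:**
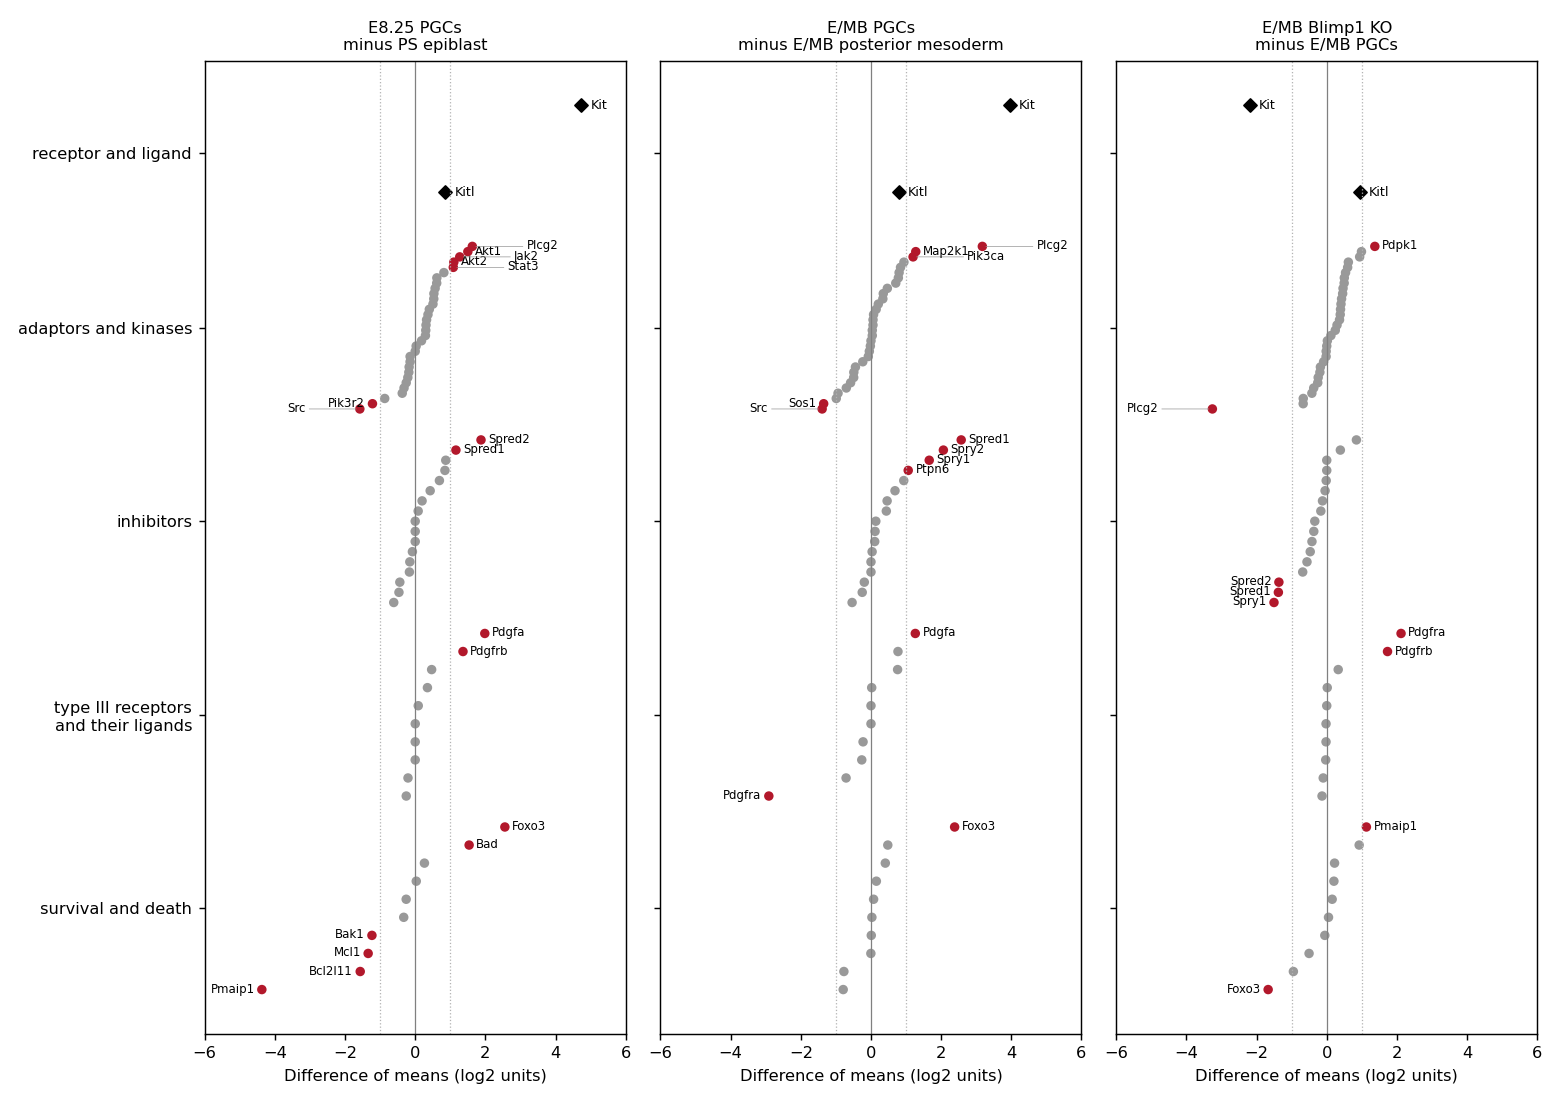
Differences of mean floored log2 signal, in log2 units, for Kit and Kitl (diamonds) and each measured gene of 4 lists (points), in E8.25 PGCs minus PS epiblast, E/MB PGCs minus E/MB posterior mesoderm, and E/MB Blimp1 knockout minus E/MB PGCs; the vertical position within a list only ranks its genes. Red points pass 1 log2 unit (dotted lines); Kit stands at 4.74, 3.97 and -2.18, beyond most list members.

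Some inhibitors of Kit signalling were higher in PGCs. In E/MB PGCs against mesoderm, 4 of 17 were higher and 0 lower (median 0.14), where 7.99% of all genes were called higher: Spred1 by 2.57, Spry2 by 2.06, Spry1 by 1.66 and Ptpn6 by 1.06. Spred and Spry proteins dampen Ras signalling, and Ptpn6 is a phosphatase. In E/MB PGCs against LS/0B precursors 3 of 17 were higher and 0 lower (Spry2 1.17, Spred1 1.08 and Spred2 1.04), beside 2.72% of all genes. EHF PGCs against EHF Blimp1+ Hoxb1+ cells had 4 higher and 2 lower, beside 6.52% and 5.12% of all genes. For E/MB knockout cells against E/MB PGCs 0 were higher and 3 lower (Spry1 -1.5, Spred1 -1.38 and Spred2 -1.36), beside 3.37% of all genes called lower. Spred2 averaged 10.77 ± 0.50 in E8.25 PGCs, against 8.90 ± 1.31 in PS epiblast. Of the adaptors and kinases, 3 of 32 were higher and 2 lower in E/MB PGCs than in mesoderm, and 15 higher and 0 lower with arrays scaled to hybridisation controls. That scaling called 30.8% of all genes higher and 0.297% lower in this comparison, so the second split is not read as a result about these genes.

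The related receptor Pdgfra, which binds platelet-derived growth factors, ran opposite to Kit between E/MB PGCs and mesoderm or E/MB knockout cells. It was detected in 0 of 24 PGCs, in 10 of 10 mesoderm cells and in 7 of 12 E/MB and 18 of 20 LS/0B knockout cells. E/MB PGCs lay 2.91 below mesoderm (difference -2.91) and E/MB knockout cells 2.12 above PGCs. Pdgfrb, its paralogue, was 1.73 higher in E/MB knockout cells than in PGCs, while Pdgfa, a ligand of Pdgfra, was 1.26 higher in E/MB PGCs than in mesoderm. Flt3 was detected in no cell and Csf1r in nearly all, with group means between 7.48 and 7.86. In E8.25 PGCs against PS epiblast, where Kit was 4.74 higher, 0 of 10 type III receptors and ligands, Pdgfra included, were called lower.

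Among regulators of Kit known from other cells, 3 of 13 were higher and 0 lower in E8.25 PGCs than in PS epiblast: Tfap2c by 2.35, Lmo2 by 1.78 and Gata2 by 1.58. Of all genes 4.5% were called higher there and 4.79% lower. Lmo2 was 1.85 higher in E/MB PGCs than in LS/0B precursors and differed by -2.25 in E/MB knockout cells from E/MB PGCs. Tfap2c differed by -2.83 there. Tal1, which works with Lmo2 in blood cells, was detected in 1 cell of all, an LS/0B precursor. Of 12 markers of blood, endothelium and mast cells, other cells that can carry Kit, the number detected per cell had medians of 0.5, 1 and 1 in E/MB, EHF and E8.25 PGCs. At these stages 10, 10 and 9 of the 12 were detected in no cell, and their summed signal ranged from 303 to 755, 385 to 1236 and 375 to 1609. In E/MB knockout cells 10 of 12 were detected in no cell and the summed signal ranged from 262 to 1575.

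Of 4 proteases that can release Kit ligand, 1, Adam17, was higher in E/MB PGCs than in mesoderm, by 1.37, with 9.16 ± 0.69 against 7.80 ± 1.4. Of all genes 7.99% were called higher there. In E/MB knockout cells over mesoderm 1 of the 4 was also higher, beside 6.58% of all genes. Of 10 measured genes of survival and death downstream of Kit, 2 were higher and 4 lower in E8.25 PGCs than in PS epiblast, beside 4.5% and 4.79% of all genes. Foxo3, a transcription factor that Akt holds out of the nucleus, averaged 9.92 ± 0.61 in E8.25 PGCs, against 7.36 ± 1.37 in epiblast, and Pmaip1, a death-promoting protein, averaged 6.40 ± 0.76, against 10.77 ± 0.66 in epiblast. The migration receptor Cxcr4 was detected in 1 cell of all, an LS/0B knockout cell.

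Markers of germ cells and of mesoderm differed in some of the comparisons in which Kit did. In E/MB PGCs against mesoderm, 10 of 11 germ cell markers were higher and 0 lower, with a median of 3.13. Of 12 allantois and mesoderm markers, 0 were higher and 8 lower, with a median of -2.41. Of all genes 7.99% were called higher there and 3.55% lower. In E/MB knockout cells against PGCs, 0 of 11 germ cell markers were higher and 10 lower, with a median of -2.81. There 8 of 12 mesoderm markers were higher with a median of 1.73, beside 3.69% of all genes called higher and 3.37% lower. The germ cell list holds Prdm1 and Dppa3, by which PGCs were chosen. The mesoderm list holds Hoxb1, by which the mesoderm cells were chosen. Part of these counts was therefore set by the choice of cells. In other comparisons the lists and Kit differed apart from each other. LS/0B knockout cells had 7 of 11 germ cell markers lower than LS/0B precursors (median -1.14) at the same Kit mean, beside 0.379% of all genes. In E/MB against LS/0B knockout cells, where Kit was 1.34 higher, 0 of 11 were higher and 1 lower. Of all genes 0.495% were called higher and 0.643% lower in that comparison. In E8.25 PGCs against PS epiblast 0 of 12 mesoderm markers were called in either direction, beside 4.5% of all genes higher and 4.79% lower. The number of these markers detected per cell had a median of 1 of 12 in each of these groups. A marker at the floor in both groups cannot be called, so this count does not show whether the mesoderm list and Kit differed apart. The number of germ cell markers detected per cell was 3 to 9 of 11 in E/MB knockout cells and 11 of 11 in all E/MB PGCs, with summed signals of 2101 to 20821 and 25569 to 32734. The summed signal of the 12 allantois and mesoderm markers was 6886 to 17606 in E/MB knockout cells and 936 to 8623 in E/MB PGCs. The part of these genes in the Kit result was not tested. Of 7 measured housekeeping genes, 0 were higher and 1 lower in E/MB PGCs than in mesoderm (median 0.03). In E/MB knockout cells against E/MB PGCs, 1 of them was higher and 0 lower (median 0.17).

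The order of Kit means over groups was E8.25, EHF and E/MB PGCs, then E/MB knockout, E/MB Blimp1+ Hoxb1+ cells, LS/0B precursors, LS/0B knockout, PS epiblast, E/MS precursors, mesoderm and EHF Blimp1+ Hoxb1+ cells. Only the gap from E/MB PGCs to E/MB knockout cells, 2.18, and that between E8.25 and EHF PGCs, 0.37, was larger than the larger SD of its pair (1.81 and 0.33), so other neighbours did not differ beyond their spread. For Kitl the order began with E/MB Blimp1+ Hoxb1+ cells, E/MB knockout and EHF Blimp1+ Hoxb1+ cells, followed by E/MB PGCs, LS/0B precursors, mesoderm, LS/0B knockout, EHF PGCs, E8.25 PGCs, PS epiblast and E/MS precursors. No neighbouring pair in this order differed beyond its larger SD.

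The other probe sets of both genes were detected in fewer cells. Kit probe set 1415900_a_at was detected in 2 cells, against 49 for the set used, and its correlation with that set over cells was 0.20. For Kitl, 1448117_at was detected in 23 cells, 1415854_at in 6 and 1426152_a_at in 0, against 69 for the set used, with correlations of 0.58 and 0.19 for the first pair. Probe set 1448117_at was detected in 4 of 4 E/MB and 3 of 4 EHF Blimp1+ Hoxb1+ cells and 9 of 12 E/MB knockout cells. It was detected in 4 of 20 LS/0B knockout cells, 2 of 17 LS/0B precursors, 1 of 8 E/MB PGCs and 0 cells of the other groups. Its means were 6.30 in E/MB and 6.26 in EHF PGCs. They were 7.31 in E/MB and 6.54 in LS/0B knockout cells, and 6.30 in LS/0B precursors. As a mean over the probe sets, differences of 1 log2 unit or more kept their sign and came closer to 0, with Kit in E8.25 PGCs over PS epiblast at 2.37. Several were then under 1 log2 unit. For Kit these were E/MB knockout cells over mesoderm (0.89) and over LS/0B knockout cells (0.67), E/MB Blimp1+ Hoxb1+ cells over mesoderm (0.84) and EHF over E/MB Blimp1+ Hoxb1+ cells (-0.91). For Kitl, beside those given above, they were EHF over E/MB PGCs (-0.49), EHF PGCs over EHF Blimp1+ Hoxb1+ cells (-0.75), and E/MB knockout cells over mesoderm (0.78), LS/0B knockout cells (0.63) and E/MB Blimp1+ Hoxb1+ cells (-0.62).

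Of 8905 genes detected in at least 25% of cells, those most like Kit over all cells were Dppa3 (Pearson r 0.78, and 0.91 over the 11 group means), Slc40a1 (0.77 and 0.93), an iron exporter, Syt2 (0.75 and 0.91), Mfge8 (0.71 and 0.95) and Ttyh1 (0.70 and 0.94). They were followed by Lrrc8d (0.70 and 0.97), AU015836, Pygl, Klf2 and Gstm1. Dppa3 was used to choose the PGCs. Tmem215 (-0.79), Prr27, Ldha, Ntng1 and Prps1 were the most opposite. The group means of Slc40a1 were 10.88 in E8.25 PGCs, 6.28 in E/MB knockout cells, 6.13 in mesoderm and 6.61 in PS epiblast.

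Genes most like Kitl were Amph (0.62 over cells and 0.93 over group means), Fjx1 (0.60 and 0.87), Frmd4b (0.59 and 0.89), Bmp4 (0.58 and 0.92), a growth factor that induces PGCs, and Vim (0.57 and 0.88), an intermediate filament of mesenchymal cells. Arid3b, Mtap, Cdx2, Foxo4 and Glud1 followed, and Fzd7 (-0.55), Ppa1, Snrpn, Ruvbl2 and Tdgf1 were the most opposite. For each gene 3 of the 10 most like were also among the 10 most like over group means. Bmp4 averaged 11.30 ± 0.68 in E/MB knockout cells, 9.76 ± 2.17 in E/MB PGCs and 7.11 ± 1.43 in E8.25 PGCs.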

How the data were processed

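Each cell was measured on 1 array, from cDNA amplified from its lysate, per the labels' protocols. The deposited values are linear intensity. MAS5 made them, per the submitters' processing notes, whose version, scaling target and handling of dim spots are not stated here. Of all values 15.3% were exactly 1, means trimmed by 2% lay between 131 and 207, 1 was missing, and 0 pairs of arrays held the same values. Of 45101 probe sets, 64 were controls, 34945 had 1 gene symbol, 932 several and 9160 none here; those with 1 symbol gave 18193 genes, and 0 symbols were updated against the RefSeq table of GRCm38.p6.

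Probe sets of genes for smell, taste and hair keratin-associated proteins, 126 in all, stood for background. For the floor, 70.2, their 90th percentile was taken in each cell and then the median of these, and the detection limit of a cell is their 95th percentile there (median 120). The probe set with the highest mean log2 signal stood for its gene. Each group counted as 1 sample, since the labels call the cells biological replicates but name no embryo, so no test was made and SDs and exact (Clopper-Pearson) 95% intervals cover cells only. Genes detected in at least 50% of cells (7213) are called broadly detected. Where 1 group had 0 detected cells, the fold is a bound, the mean log2 signal of the other group against the mean of the higher of each undetected cell's signal and limit. How many cells a group holds limits how precise its values are.

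The text names both genes with all their probe sets, the counted members of 11 lists with 143 symbols (129 measured), and the 10 genes with the highest and 5 with the lowest correlation with each gene among 8905 genes detected in at least 25% of cells. Kit, Kitl and the lists were chosen with earlier results of these data known. Promoter windows come from RefSeq. The calculation was checked on simulated data. Python 3.11.15, numpy 2.4.6, pandas 2.3.3, scipy 1.17.1 and matplotlib 3.10.9 were used. Alternatives were no floor, the mean over probe sets, another detection limit, 3 other scalings, cells without Xist, all 8 Blimp1+ Hoxb1+ cells together, and leaving out each cell.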

Additional observations from a re-analysis of the deposited data

Results flagged for a closer look

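In 4 of the 14 sets of 4 to 10 cells looked at, 1 cell stood far from the others. The rule marks about 1 set in 20 by chance where values are not raised to a floor. In the first 3 sets below most cells stood at the floor, so that rate does not apply to them and the count of 4 is not read against it. Kit in E/MS precursor replicate 5 was 7.20 in log2 (signal 147), while 5 of the other 6 cells were at the floor. Kit in posterior mesoderm replicate 7 was 7.31 (159), above the other 9 cells. Kitl in PS epiblast replicate 3 was 7.39 (168), the only epiblast cell above the floor, and the same cell had Kit detected. Kitl in E/MB Blimp1+ Hoxb1+ replicate 3 was the lowest of the 4 cells, at 10.5 (signal 1463). In the first 3 sets the values lay near the detection limit, and none passed the 99th percentile of background probe sets.

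Kit differed between the EHF and E/MB labels in opposite directions in PGCs and in Blimp1+ Hoxb1+ cells, among 6 pairs of parallel differences looked at. The difference of EHF from E/MB PGCs was 0.56, or 0.19 without E/MB replicate 4, and that of EHF from E/MB Blimp1+ Hoxb1+ cells was -1.82. The difference between them was not tested, and the stage of the EHF Blimp1+ Hoxb1+ cells is given differently in their titles.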

How the results depend on the processing

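No paired analysis was possible because no test was made and cell numbers do not mark a shared embryo. No called difference of Kit or Kitl changed sign under the alternatives run. Without the floor, values at 1 count in full: Kitl was -0.59 in E/MS precursors over PS epiblast, 7.58 in LS/0B over E/MS precursors, -2.0 in E8.25 over EHF PGCs, 2.45 in E8.25 PGCs over PS epiblast and -3.17 in EHF PGCs over EHF Blimp1+ Hoxb1+ cells. Kit, in the same way, was 2.38 in LS/0B over E/MS precursors, 5.96 in E/MB PGCs over LS/0B precursors, 8.79 in E8.25 PGCs over PS epiblast, 6.80 in E/MB PGCs over mesoderm, 10.2 in EHF PGCs over EHF Blimp1+ Hoxb1+ cells, -1.16 in LS/0B knockout cells over precursors, 3.15 in E/MB knockout cells over mesoderm and 3.46 over LS/0B knockout cells, 4.51 in E/MB Blimp1+ Hoxb1+ cells over mesoderm and -7.32 in EHF over E/MB Blimp1+ Hoxb1+ cells. As the mean over probe sets, most of which were undetected, Kit was 1.83, 0.022, 2.37, 2.05 and 2.50 in E/MB PGCs over LS/0B precursors, E8.25 over EHF PGCs, E8.25 PGCs over PS epiblast, E/MB PGCs over mesoderm and EHF PGCs over EHF Blimp1+ Hoxb1+ cells, and Kitl was 0.72, 1.39 and -0.81 in LS/0B over E/MS precursors, E/MB Blimp1+ Hoxb1+ cells over mesoderm and EHF over E/MB Blimp1+ Hoxb1+ cells. Scaled to hybridisation controls, Kit in E8.25 over EHF PGCs was 0.77. Kit in EHF PGCs over EHF Blimp1+ Hoxb1+ cells was 4.39 in the 3 and 3 cells without Xist and 3.77 against all 8 Blimp1+ Hoxb1+ cells. The comparison with PS epiblast could not be made without Xist, which all 8 cells had. At the 99th percentile limit, Kit was detected in 0 PS epiblast, 0 E/MS, 2 LS/0B, 1 E/MB Blimp1+ Hoxb1+, 1 LS/0B knockout and 0 mesoderm cells, and Kitl in 0 PS epiblast cells. Kit was then in 7 of 8 E/MB PGCs, 8 of 8 at EHF and at E8.25, and 6 of 12 E/MB knockout cells. Kitl was in 10 of 12 E/MB and 11 of 20 LS/0B knockout cells, 12 of 17 LS/0B precursors and 5 of 10 mesoderm cells. It was in 6 E/MB, 3 EHF and 3 E8.25 PGCs and in 4 E/MB and 3 EHF Blimp1+ Hoxb1+ cells. Leaving out 1 cell moved none of 303 Kit and 303 Kitl values by more than the SD over cells. A mean cannot move by more than that, so this count says nothing of how stable the values are. By this change Kit in EHF over E/MB Blimp1+ Hoxb1+ cells ranged from -2.23 to -1.11. Kitl in E/MB knockout cells over E/MB PGCs ranged from 0.52 to 1.28.

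List counts under other settings were chosen after seeing the data. Counts near the share of all genes called are not read as a result about the lists. In E8.25 PGCs over PS epiblast, higher adaptors, inhibitors and type III members numbered 1, 1 and 1 as the mean over probe sets, higher inhibitors 4 with hybridisation controls, and lower inhibitors and type III members 2 and 1 without the floor. Of all genes, 2.64% were higher as the mean, 6.49% higher with hybridisation controls and 14.1% lower without the floor. In E/MB PGCs over mesoderm, higher adaptors, inhibitors and type III members numbered 15, 7 and 3 with hybridisation controls, and lower adaptors 0. This scaling called 30.8% of all genes higher and 0.297% lower. Without the floor, adaptors were 6 higher and 7 lower and type III members 2 and 2, beside 19.5% of all genes higher and 10.7% lower. Lower adaptors were 1 as the mean over probe sets, beside 2.08% of all genes. They were 4 when scaled to broadly detected genes (5.73% of all genes) or quantile normalized (5.13%). In E/MB knockout cells over E/MB PGCs, higher adaptors numbered 3 without the floor, 0 as the mean over probe sets, 2 scaled to broadly detected genes and 3 to hybridisation controls, higher inhibitors 1 without the floor and 1 with hybridisation controls, and higher type III members 1 as the mean over probe sets. In the order given for adaptors, these settings called 13.2%, 2.06%, 3.9% and 5.94% of all genes higher. In E/MB PGCs over LS/0B precursors, higher adaptors were 1 as the mean over probe sets or quantile normalized, lower adaptors 3 without the floor and 0 as the mean, and type III members 1 higher and 0 lower as the mean and 2 lower without the floor. Of all genes, 1.54% were higher and 1.31% lower as the mean, 2.56% higher when quantile normalized and 9.35% lower without the floor.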
